A study of Mus musculus with 4 samples.

Results

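Conventional type 1 dendritic cells (cDC1) of the mouse colon were selected on their own transcript counts from a droplet single-cell RNA-seq survey of CD45+ leukocytes. A barcode was a member if it held at least 1 unique molecular identifier (UMI, one counted RNA molecule) of Xcr1 or Clec9a and at least 2 UMIs over Xcr1, Clec9a, Cadm1, Snx22 and Tlr3, at most 1 UMI of the T cell genes Cd3e, Cd3d and Cd3g, at most 1 of the B cell genes Cd79a and Cd79b, and none of the plasmacytoid gene Siglech. Of 20428 barcodes that passed quality filtering, 100 were members. Control 1 gave 31 of them, control 2 gave 28, stress 1 gave 19 and stress 2 gave 22. The leukocytes were sorted from total colon of wild-type (WT) C57BL/6 mice that had undergone restraint stress each day for 7 days or control treatment, with 2 libraries per group and one genotype and strain throughout. The labels do not give the age or sex of the mice, or whether a library came from 1 animal or a pool. The p-values therefore reflect how much these 4 libraries vary, which may be technical.

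cDC1 are a small lineage of antigen-presenting cells that depends on the transcription factors Irf8 and Batf3. They take up dead cells through receptors such as Clec9a and show the captured antigens to CD8 T cells on MHC class I, which is called cross-presentation, and their chemokine receptor Xcr1 draws them to T and NK cells that release Xcl1. On maturation a dendritic cell switches on Ccr7, which guides it to the draining lymph node, together with costimulatory molecules, chemokines and, in cDC1, the p40 subunit of interleukin 12 encoded by Il12b.

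The files held 2941, 6124, 10259 and 5591 barcodes for controls 1 and 2 and stress 1 and 2. The kept barcodes had medians between 2176 UMIs (stress 1) and 4559 UMIs (stress 2), so the shallowest and the deepest library both came from stressed mice. Members were deeper, with medians of 10642, 7814, 7119 and 13047 UMIs in that order, and their counts summed to 338068, 250177, 140829 and 312785 UMIs. Pairs of libraries shared 3 to 19 barcode sequences, and 1 member carried a barcode also found in another library. The 978 kept barcodes with the highest Scrublet doublet scores, a number set by the expected doublet rate, included 0 members. Levels below are CPM, the UMIs of a gene summed over the members of a library and scaled to a common total, and values of the 4 libraries are given in the order control 1, control 2, stress 1, stress 2.

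The genes that chose the members are given as a description only. Xcr1 stood at 243, 220, 391 and 329 CPM, and Clec9a, the receptor for exposed actin of dead cells, at 109, 200, 213 and 153 CPM. Both receptors were found in 56 members, while 19 held Xcr1 without Clec9a and 25 held Clec9a without Xcr1. Cadm1, an adhesion molecule, stood at 106, 204, 256 and 144 CPM, and Tlr3, the sensor of double-stranded RNA, at 91.7, 152, 78.1 and 102 CPM. In all other kept cells Xcr1 averaged 0.614 CPM and Clec9a 1.03 CPM. Of the members 20 sat at the minimum of 2 UMIs, and 64 further barcodes had 1. Irf8 stood between 460 and 1368 CPM in members at the minimum and between 171 and 604 CPM in barcodes just outside it. In control 2 it was lower inside, at 460 CPM against 562 CPM outside.

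The members carried the known cDC1 programme beyond the genes of the rule. The 25 genes with the highest ratio to all other kept cells, among 932 genes of at least 100 CPM in the members of every library, were led by Cst3, the protease inhibitor cystatin C, by Naaa, a lysosomal amidase used as a cDC1 marker, and by Apol7c and Ifi205. Naaa stood at 660, 723, 1186 and 719 CPM against a mean of 24.8 ± 7.02 CPM (SD, n = 4 libraries) in the other kept cells. Apol7c averaged 453 CPM in the members and 200 CPM in macrophages, and was found in 13, 4, 4 and 5 members. Irf8 stood at 1201, 1155, 1655 and 1442 CPM, which was 11.3 times its mean in conventional type 2 dendritic cells (cDC2), the sister lineage, here 161 cells chosen by Cd209a and related genes with no Xcr1 or Clec9a UMI. Batf3 stood at 195, 144, 206 and 157 CPM, 1.75 times its mean in cDC2. These ratios are not independent of how the cells were chosen and carry no test.

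Within that programme several genes with roles in endosomes and cross-presentation were higher than in cDC2. Wdfy4, which cDC1 need to cross-present cell-associated antigen, was 3.30 times as high as in cDC2, with 328, 448, 483 and 428 CPM. Ppt1, a lysosomal thioesterase, was 14.3 times as high. Rab7b, a small GTPase of late endosomes, stood at 337, 440, 518 and 371 CPM against means of 44.8 CPM in cDC2 and 283 CPM in macrophages. Apart from those roles, P2ry14, a receptor for UDP-glucose, stood between 108 and 220 CPM. In cDC2 it averaged 0.727 CPM, with at most 2.91 CPM in a library, so the ratio of 209 has no fixed size. Its mean in macrophages was 31.5 CPM. The ratio to cDC2 was below 1 for Ccnd1 (0.905) and Alox5ap (0.840), genes that cDC2 hold at like levels.

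**Figure D1:**
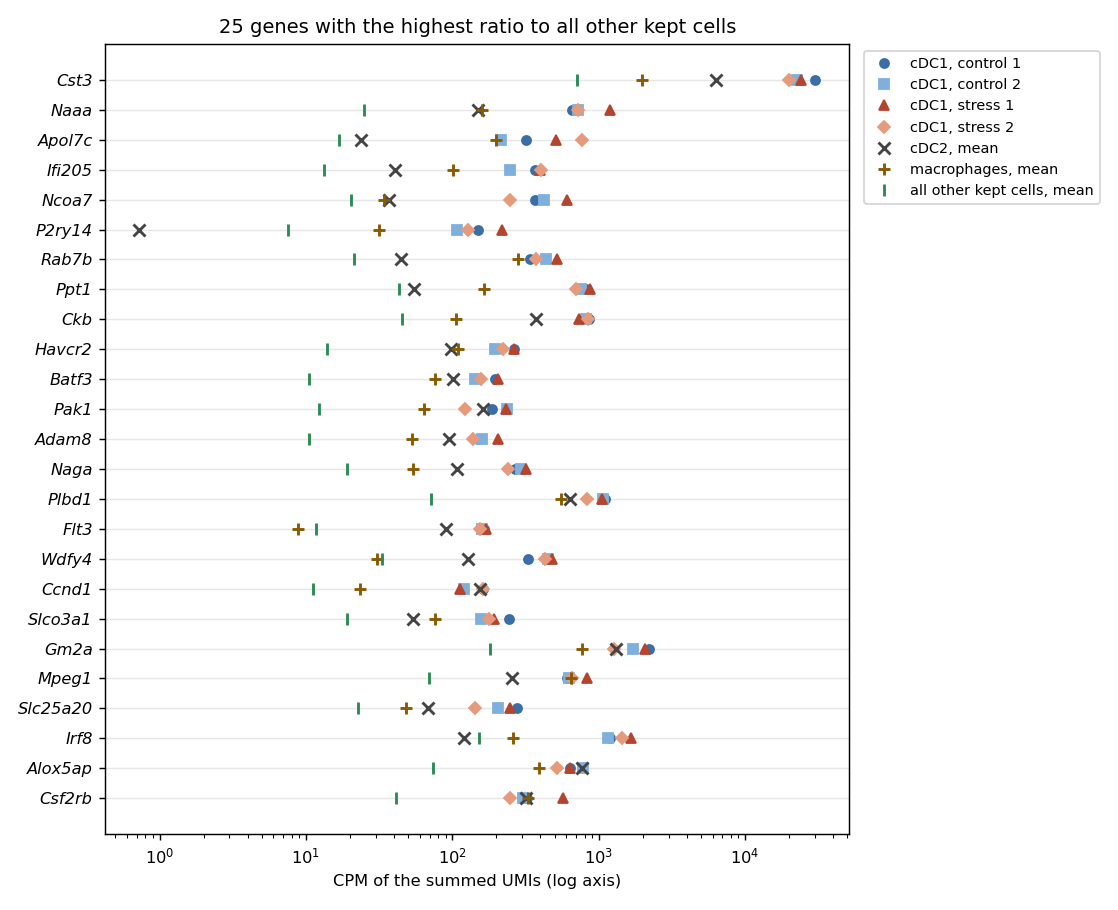
The 25 genes with the highest ratio of cDC1 members to all other kept cells, with CPM on a log axis. Filled symbols are the 4 libraries of cDC1 members, and crosses, plus signs and bars are means over 4 libraries of cDC2, macrophages and all other kept cells. P2ry14 and Irf8 lie far above cDC2, while Ccnd1 and Alox5ap overlap it.

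Further cDC1 genes outside the 25 differed in how they compared with other cells. Itgae, the CD103 integrin chain of intestinal cDC1, stood at 254, 144, 135 and 128 CPM, against means of 38.3 CPM in cDC2 and 19.8 CPM in the other kept cells. The sensors Tlr11 and Tlr12 averaged 25.7 and 53.6 CPM in the members against 0.366 and 3.96 CPM in the other kept cells. Cd8a, which marks cDC1 of lymphoid organs, stood between 28.8 and 35.5 CPM and averaged 39.1 CPM in the other kept cells, which include T cells. Itgb8, which activates TGF-beta, had 0 UMIs in all members, and so had the retinoic acid enzymes Aldh1a1 and Aldh1a3, while Aldh1a2 had 2. With 1041859 member UMIs in all, a count of 0 says that a gene was not detectable at this depth.

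The genes of the MHC class II chains were compared with cDC2 as a description. H2-Ab1 stood at 11436, 11728, 11802 and 11228 CPM, and H2-Eb1 at 9954, 9261, 9785 and 9153 CPM, against means of 10738 ± 1391 and 9393 ± 1915 CPM (SD, n = 4 libraries) in cDC2. Cd74, the invariant chain, stood at 25829, 16804, 17319 and 19624 CPM. Ctss, the protease that trims the invariant chain, averaged 581 ± 151 CPM in the members and 1419 ± 140 CPM in cDC2 (SD, n = 4 libraries). H2-DMb2 averaged 148 and 268 CPM and H2-Oa 156 and 231 CPM in the same order.

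Markers of other cell types were summed by list, and the rule itself limited some T, B and plasmacytoid genes. The T cell list summed to 2.96 to 7.10 CPM, the NK and innate lymphoid list to 2.96 to 9.59 CPM, the B cell list to 6.39 to 21.3 CPM and the fibroblast and epithelial list to 6.39 to 14.8 CPM. The monocyte list summed to 556 to 1165 CPM, nearly all from Plac8 and Ccr2, while Chil3, Vcan, S100a8 and S100a9 were at 0. The plasmacytoid list summed to 180 to 248 CPM, led by Bst2, and the plasma cell list to 370 to 1947 CPM. The cDC2 list summed to 2464, 1707, 1775 and 3635 CPM, led by Il1b, Klf4 and Ccr2. Il1b averaged 1347 CPM in the members and 4119 CPM in cDC2, Klf4 338 and 483 CPM, Sirpa 13.6 and 116 CPM, and Cd209a, which chose the cDC2, 14.1 and 1090 CPM. The macrophage list summed to 3899, 1311, 6902 and 2005 CPM, and 8 members (3, 0, 2 and 3) held more than 1 UMI of the complement genes C1qa, C1qb and C1qc, which define tissue macrophages. Those 8 cells held 199 of all 200 C1qa UMIs of the members. In 6 of them there was no Xcr1 UMI, and they held 25 to 172 C1q UMIs with 2 to 50 UMIs of Cst3, whereas the other 2 held 446 and 213 Cst3 UMIs. The transcripts of these 6 barcodes went against the cDC1 label.

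The share of cDC1 overlapped between the groups. Members made up 1.22% of kept cells in control 1 (exact Clopper-Pearson 95% interval 0.829 to 1.72%), 0.515% in control 2 (0.343 to 0.744%), 0.228% in stress 1 (0.138 to 0.356%) and 0.533% in stress 2 (0.334 to 0.806%). The groups overlapped, since stress 2 lay above control 2, and the means were 0.866% ± 0.497 (SD, n = 2) and 0.381% ± 0.215 (SD, n = 2). The difference of -0.486 percentage points gave p = 0.667 in a two-sided exact permutation test, which cannot go below 0.3333 with 2 libraries against 2. Without control 1 the difference was -0.134 points, and with every barcode thinned to 1000 UMIs the shares averaged 0.111 and 0.0778%, a difference of -0.0333 points. As a share of all cDC1 and cDC2 members, cDC1 took 39.7, 51.9, 25 and 41.5%, again overlapping (exact permutation p = 0.667). These intervals cover counting error only, and a share of sorted leukocytes also moves with the numbers of every other cell type.

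**Figure D2:**
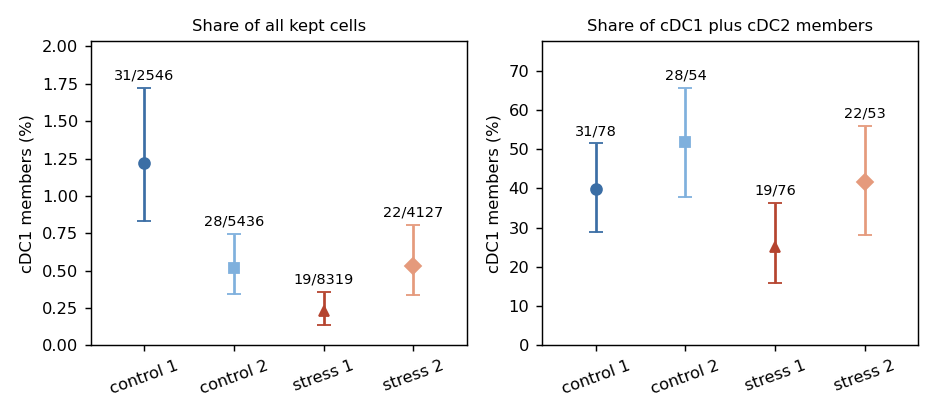
cDC1 members as a percentage of all kept cells (left) and of cDC1 plus cDC2 members (right), per library, with exact 95% intervals for counting error and the cell counts above each point. Stress 1 was lowest on both scales, and stress 2 lay between the 2 controls on both.

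Dividing cells were counted by their mitotic transcripts. After each cell was thinned to 2000 UMIs, which left out 1 and 2 cells of the controls, at least 3 UMIs over 10 mitotic genes were found in 0 of 30, 2 of 26, 0 of 19 and 0 of 22 members, and the groups overlapped (exact permutation p = 1). These counts rest on a single random draw of UMIs. Without thinning the counts were 2 of 31, 2 of 28, 1 of 19 and 6 of 22, and 1 member of stress 2 held 50 mitotic UMIs. In cDC2 the shares were 2.17, 3.85, 5.36 and 0%.

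Few genes differed between stress and control in the summed counts of the members. Of 3498 genes tested with edgeR outside the genes of the rule, 18 passed an adjusted p of 0.05, which is 0.515% of them. Of these 15 were higher under stress (0.429%) and 3 lower (0.0858%), and 234 genes (6.69%) had an unadjusted p under 0.05. They included maturation genes (Ccr7, Ccl22 and Il4i1), interferon genes (Irf1 and Serpina3g), plasma cell transcripts (Igha, Igkc and Jchain), and, lower, the inflammatory chemokines Ccl3 and Ccl4 with Phlda1. DESeq2 called 8 genes, leaving out the 2 most Ccr7-rich members left 9, and leaving out control 1 gave 67. For scale, 731 of the 3498 genes (20.9%) had both stress libraries above both controls and 515 (14.7%) had both below.

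**Figure D3:**
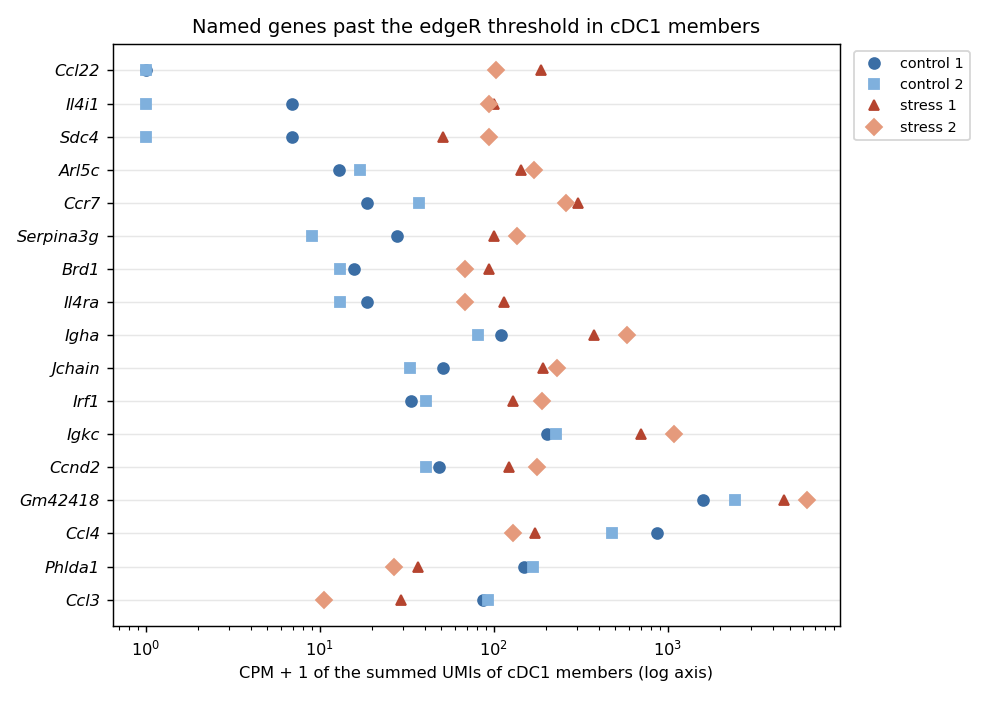
CPM + 1 on a log axis, per library, for the named genes past the edgeR threshold. Both stress libraries lie to the right of both controls in every gene drawn except Ccl4, Phlda1 and Ccl3 at the bottom, which have the opposite order.

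Ccr7, Ccl22 and Il4i1 rose, with most of their UMIs in a few cells. Ccr7 stood at 17.7, 36.0, 305 and 259 CPM, a log2 change of 3.35 (SE 0.38, edgeR adjusted p = 0.000139), and the groups did not overlap. In stress 1, 1 cell held 40 of the 43 Ccr7 UMIs and 1 cell in stress 2 held 60 of 81, while 9 of 59 control members and 8 of 41 stress members had any. Ccl22, a chemokine for Ccr4-bearing T cells, had 0 UMIs in both controls and 26 and 32 in stress 1 and 2 (185 and 102 CPM), at least 13.8-fold higher against a floor of 3 counts per control library (edgeR adjusted p = 0.000143). It was found in 2 of 19 and 6 of 22 stress members, and in cDC2 it averaged 96.4 CPM. In B cells 1 of 4283 control and 6 of 7701 stress cells had a Ccl22 UMI, at library medians of 2089 to 4365 UMIs per cell. Il4i1, a secreted amino acid oxidase of mature dendritic cells, stood at 5.92, 0, 99.4 and 92.7 CPM (log2 4.57, SE 0.69, edgeR adjusted p = 0.00105), and each stress library had it in 1 cell alone. It was not called without stress 2 (log2 4.59), with equal numbers of members (log2 4.03) or in DESeq2 (log2 4.79). Il4i1 rose in cDC2 too (log2 3.51, edgeR adjusted p = 0.0257).

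Those 2 cells, of 8609 UMIs in stress 1 and 9264 in stress 2, shared maturation transcripts. They held 40 and 60 Ccr7 UMIs, 21 and 20 Ccl22 UMIs, 14 and 29 Il4i1 UMIs and 56 and 79 UMIs of Apol7c. Il12b was concentrated in them, with 70 and 59 UMIs of the 138 found in all members. The surface receptor Ly75 (DEC-205) had 11 and 20 UMIs, the granzyme inhibitor Serpinb9 17 and 14, and neither cell held a Ccl4, C1qa, Cd3e or Cd79a UMI. Their gate counts were 7 and 1 UMIs of Xcr1 and 1 and 1 of Clec9a, and Irf8 had 10 UMIs in the first and 0 in the second. No control member reached 10 UMIs over Ccr7 and Fscn1. Summed over members, Il12b stood at 20.7, 0, 504 and 192 CPM (log2 4.70, SE 0.96, edgeR adjusted p = 0.325), and Ccl17 at 5.92, 19.99, 71.0 and 355 CPM (edgeR adjusted p = 0.521). Without the 2 cells Ccl22 had an edgeR adjusted p of 0.516, and Ccr7 and Il4i1 did not pass the filter on low counts.

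**Figure D4:**
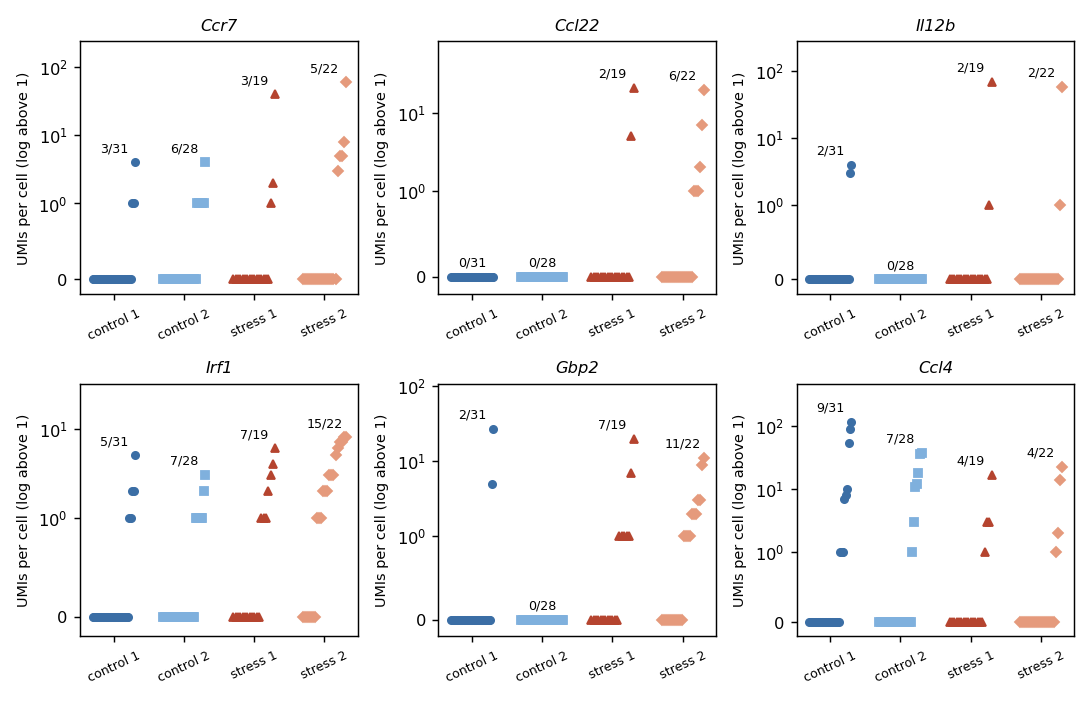
UMIs per cell of 6 genes in each member, by library, on an axis that is logarithmic above 1, with the number of cells that held the gene over the number of members. Ccr7 and Il12b rest on 1 high cell in each stress library, and Irf1 was found in 7 and 15 cells of the stress libraries. Gbp2 was found in 7 and 11, with 20 of the 32 UMIs of stress 1 in 1 cell.

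A maturation score was also counted cell by cell. At least 3 UMIs over Ccr7, Fscn1, Ccl22, Cacnb3, Socs2, Il4i1 and Apol7c, after thinning to 2000 UMIs, were found in 10.0, 3.85, 10.5 and 22.7% of members (3 of 30, 1 of 26, 2 of 19 and 5 of 22). Both stress libraries lay above both controls (exact permutation p = 0.3333, the smallest possible). These counts, too, rest on a single random draw of UMIs. Control 2, which held no C1q-bearing member, gave 3 of 26 (11.5%) when drawn anew in the setting without such members. That is above the 10.5% of stress 1 in the first draw. Without the 2 Ccr7-rich cells the shares were 10, 3.85, 5.56 and 14.3% and overlapped (exact permutation p = 0.667). Part of the UMIs of the stress members was also drawn anew there. Without stress 2 the difference fell from 9.70 to 3.603 points. Much of the score was Apol7c, itself among the leading programme genes. Without thinning, 11, 4, 3 and 7 members reached the minimum, of which 8, 3, 1 and 0 did so with UMIs of Apol7c alone, and 2, 1, 2 and 6 held a UMI of Ccr7, Ccl22 or Il4i1. Macrophages, with 2.03 to 9.30%, and cDC2, with 3.57 to 15.2%, reached overlapping shares. Without thinning the difference was -1.08 points. Over the whole maturation list, 12 of 15 tested genes had a log2 change above 0 against 1749 of all 3498, 12 had both stress libraries above both controls (20.9% over all tested genes), 3 passed the test upward (0.429% over all) and 0 downward, and the median was 1.68 against 0.00 for all tested genes. The median was 1.68 also with Ccl22 at its bound. Ccl22, Il4i1, Il12b and Ccl17 were low in both controls and could pass the filter on low counts only through the stress libraries. Their direction in these list counts was thus set by the filter, and the counts are a description. Without the 2 cells 10 of the genes could be tested, the median was 0.37 and 0 passed. The costimulatory ligand Cd86 stood at 269, 228, 170 and 291 CPM and the maturation marker Cd83 at 1112, 839, 1044 and 802 CPM, with overlap in both. Cd40, the receptor through which T cells license dendritic cells, stood at 32.5, 12.0, 85.2 and 76.7 CPM (log2 1.68, SE 0.49, edgeR adjusted p = 0.261), with 18 of its 50 UMIs in C1q-bearing members.

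Irf1 and Serpina3g rose as well in the summed counts, and more stress members held them than held Ccr7 or Ccl22. Irf1, a transcription factor switched on by interferon gamma, stood at 32.5, 40.0, 128 and 189 CPM, a log2 change of 2.11 (SE 0.39, edgeR adjusted p = 0.0103). Both stress libraries lay above both controls in CPM, and a UMI was found in 12 of 59 control and 22 of 41 stress members. Once each cell was thinned to 2000 UMIs, these were 4 of 56 and 11 of 41. By library the thinned counts were 3 of 30, 1 of 26, 3 of 19 and 8 of 22, so most of these stress cells came from stress 2. Cells of a library are not replicates, and these counts carry no test. Only 1 of the 98 Irf1 UMIs came from the 2 Ccr7-rich cells, and without them the adjusted p was 0.0299. The call was lost without stress 2, with equal numbers of members, without the cells past the mitotic or maturation minimum, without the 8 C1q-bearing members, which held 17 of the 98 UMIs, and in DESeq2 (adjusted p = 0.287), while the log2 change stayed between 1.72 and 2.44 under all 15 alternatives.

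Serpina3g, a serine protease inhibitor induced by interferon gamma, stood at 26.6, 7.99, 99.4 and 134 CPM (log2 2.61, SE 0.49, edgeR adjusted p = 0.0106), without overlap. It rose in cDC2 too (log2 3.53, edgeR adjusted p = 0.00243). Among cDC1 members Serpina3g was found in 4 of 31, 2 of 28, 3 of 19 and 11 of 22, with stress 1 (15.8%) close to control 1 (12.9%). After thinning it was found in 2 of 56 control and 7 of 41 stress members, or 1 of 30, 1 of 26, 3 of 19 and 4 of 22 by library. The call in cDC1 was lost without stress 2 (log2 2.30) and in DESeq2 (log2 2.65).

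Interferon gamma acts on promoters through gamma-activated sites, TTCNNNGAA in their simplest form, and the promoters of Irf1 and Serpina3g each hold one match in the 250 bases before the transcription start. They are shown because both genes rose, and capitals mark the match. The sequences are from RefSeq on GRCm38.p6, plus strand for both genes. The first, upstream of the first of 2 RefSeq starts of Irf1, lies at chr11:53769764-53770013 and its match begins 90 bases before the start. The second lies at chr12:104235897-104236146, with a match beginning 33 bases before the RefSeq start.
Irf1: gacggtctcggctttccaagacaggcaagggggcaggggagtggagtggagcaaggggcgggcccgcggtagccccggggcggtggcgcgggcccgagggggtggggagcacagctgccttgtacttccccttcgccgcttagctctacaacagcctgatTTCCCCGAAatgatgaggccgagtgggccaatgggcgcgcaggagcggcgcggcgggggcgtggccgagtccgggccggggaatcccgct
Serpina3g: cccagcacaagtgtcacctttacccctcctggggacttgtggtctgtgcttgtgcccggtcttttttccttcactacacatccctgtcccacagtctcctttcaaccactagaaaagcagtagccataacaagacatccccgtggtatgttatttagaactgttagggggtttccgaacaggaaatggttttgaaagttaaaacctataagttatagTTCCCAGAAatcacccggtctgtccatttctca
The same letters, which read alike on both strands, occur in 2306 of 32851 mouse promoter windows of this length (7.02%). The interferon-stimulated response element, searched on both strands as GAAA, any 2 bases and GAAA, occurs in 2.98% of them and in neither of these 2. A match is a description of the letters, and binding was not measured.

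Of the 25 genes on the interferon gamma list 9 could be tested. The filter on low counts asked for enough counts in at least 2 libraries. A gene low in both controls, such as Irgm1 or Serpina3g, could enter only through the stress libraries, where it is high. The list counts and median that follow are therefore partly set by the filter and are a description. Of these 8 had a log2 change above 0, against 1749 of all 3498. In 8 of the 9 both stress libraries lay above both controls, against the background of 20.9%. Of the 9, 3 passed upward (0.429% over all), Irf1 and Serpina3g among them, and 0 passed downward (0.0858% over all). The list median was 1.54 against 0.00 for all tested genes. Gbp2, a guanylate-binding protein of cell-autonomous defence, stood at 94.7, 0, 227 and 115 CPM (log2 1.57, SE 1.48, edgeR adjusted p = 0.955). It passed without the C1q-bearing members (log2 3.48, edgeR adjusted p = 0.0238), with at least 3 UMIs over the gate genes (log2 4.24, edgeR adjusted p = 0.00267) and without control 1, where the one control left held 0 UMIs and the fold has no fixed size. It was found in 2 of 59 control and 18 of 41 stress members, 1 of 56 and 7 of 41 after thinning. In thinned cDC2 it was found in 7 of 72 control and 34 of 87 stress cells (9.72 and 39.1%), so the rise was not particular to cDC1. In thinned B cells the shares were 1.57 and 3.85%. Among cDC1 members a single control cell held 27 of the 32 control UMIs, and 50 of all 100 Gbp2 UMIs lay in C1q-bearing members. Irgm1, a related GTPase, had 2.96, 7.99, 49.7 and 54.4 CPM (edgeR adjusted p = 0.320). The chemokine Cxcl9 stood at 453, 64.0, 873 and 480 CPM (edgeR adjusted p = 0.959), with 150 of its 442 UMIs in C1q-bearing members, and Cxcl10 at 213, 15.99, 56.8 and 51.2 CPM with overlap and 54 of 100 UMIs in those members.

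The genes of antigen presentation on MHC class I had small positive log2 changes, and 0 passed the test. Of 21 tested genes 21 had a log2 change above 0, against 1749 of all 3498, 16 had both stress libraries above both controls (76.2%, against 20.9% over all) and the median was 0.35. B2m, the light chain of class I, stood at 1151, 807, 1598 and 1653 CPM (log2 0.66, SE 0.22, edgeR adjusted p = 0.390), and the heavy chain H2-K1 at 1160, 971, 1562 and 1579 CPM (log2 0.50, SE 0.21, edgeR adjusted p = 0.629). The immunoproteasome subunit Psmb9 stood at 600, 560, 774 and 854 CPM (log2 0.43, SE 0.23, edgeR adjusted p = 0.786), with no overlap. The peptide transporter genes Tap1 and Tap2 overlapped between groups. Cybb, the phagosomal oxidase, had the highest log2 change on the list at 2.13 (edgeR adjusted p = 0.0686), and 44 of its 63 UMIs lay in the C1q-bearing members. The MHC class II list had 4 of 12 tested genes above 0, with 0 called and a median of -0.08.

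The inflammatory chemokine genes Ccl4 and Ccl3, and Phlda1, fell in the summed counts. Ccl4 stood at 867, 480, 170 and 128 CPM, a log2 change of -2.29 (SE 0.32, edgeR adjusted p = 0.00093), and both controls lay above both stress libraries. It was carried by few cells in every library, 9, 7, 4 and 4, and the highest single cells held 119, 38, 17 and 23 UMIs. After thinning 13 of 56 control and 6 of 41 stress members had Ccl4, against 1.604 and 1.83% of B cells. Without the cells past the mitotic or maturation minimum its log2 change was -1.83 and not called, in a setting that called 1 gene in all. Its neighbour Ccl3 stood at 85.8, 91.9, 28.4 and 9.59 CPM (log2 -2.51, SE 0.53, edgeR adjusted p = 0.0333). In control 1, 1 cell held 27 of 29 UMIs, and in control 2, 1 cell held 12 of 23. The share of members with Ccl3 did not fall, at 5 of 59 control and 4 of 41 stress members. After thinning these were 2 of 56 and 3 of 41. Ccl3 was no longer called without stress 2 (log2 -1.72). The call was also lost with little change in size without the 2 Ccr7-rich cells, which held 0 Ccl3 UMIs (log2 -2.46), without the cells past the mitotic or maturation minimum (log2 -2.87) and in DESeq2 (log2 -2.45). Phlda1, a pleckstrin-homology protein induced by mitogens, stood at 148, 168, 35.5 and 25.6 CPM (log2 -2.48, SE 0.41, edgeR adjusted p = 0.00263) and was found in 23 of 59 control and 6 of 41 stress members. It was not called by DESeq2 (log2 -2.48, adjusted p = 0.0917) or without the cells past the mitotic or maturation minimum (log2 -2.11). Values that did not pass included Plp2 (97.6, 180, 49.7 and 35.2 CPM) and Klf4 (606, 328, 256 and 163 CPM, edgeR adjusted p = 0.160).

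Of the genes called higher, 3 are products of plasma cells. Igha, the constant region of IgA, stood at 109, 79.9, 376 and 579 CPM (log2 2.28, SE 0.31, edgeR adjusted p = 0.000353), Igkc at 201, 228, 703 and 1087 CPM and Jchain at 50.3, 32.0, 192 and 230 CPM, with no overlap. The C1q-bearing members held 32 of 291 Igha UMIs, 54 of 564 Igkc UMIs and 13 of 124 Jchain UMIs. In thinned cells Igha was found in 15 of 56 control and 26 of 41 stress members. In cDC2 the same transcripts changed by 2.14, 2.11 and 2.55 on the log2 scale in that order (edgeR adjusted p = 0.000678, 0.000246 and 0.00111). Mzb1, which marks plasma cells themselves, had at most 7.10 CPM. Barcodes under 500 UMIs are not in the files, and the part of free RNA in these values was not tested. In thinned B cells Igha was found in 33.3% of control and 83.0% of stress cells. These B cells were chosen by Cd79a and Cd79b alone, and plasma cells were not left out. Their mean of 72424 CPM of Igha may therefore include plasma cells, and their share was not tested.

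The other genes called higher were Arl5c, Sdc4, Il4ra, Ccnd2, Brd1 and Gm42418. Arl5c, a small GTPase gene, stood at 11.8, 15.99, 142 and 169 CPM (log2 3.43, SE 0.46, edgeR adjusted p = 0.000353), and 39 of its 81 UMIs lay in the C1q-bearing members. Without them its log2 change was 3.02 and not called (edgeR adjusted p = 0.0981). Sdc4, a syndecan, stood at 5.92, 0, 49.7 and 92.7 CPM, with 16 of 38 UMIs in C1q-bearing members. Il4ra, the receptor of interleukins 4 and 13, stood at 17.7, 12.0, 114 and 67.1 CPM (log2 2.37, SE 0.52, edgeR adjusted p = 0.0471). It was found in 8 of 59 control and 18 of 41 stress members. After thinning it was found in 1 of 56 control members, 4 of 19 in stress 1 and 1 of 22 in stress 2. Of its 46 UMIs 13 lay in C1q-bearing members. It was not called without them, without the 2 Ccr7-rich cells, at 25% mitochondrial UMIs, without control 2, without stress 1 or in DESeq2, while its log2 change stayed between 2.04 and 2.76 under all 13 alternatives. The cyclin Ccnd2 and the chromatin reader Brd1 had edgeR adjusted p-values of 0.0471 and 0.0495, and were lost in 9 and 10 of 15 alternatives, among them without control 2 and without stress 2 for both and without control 1 and without stress 1 for Brd1. Their log2 changes stayed between 1.34 and 1.92 and between 2.19 and 2.71. Gm42418, a noncoding locus on chromosome 17 that collects ribosomal RNA reads, stood at 1594, 2434, 4630 and 6260 CPM (log2 1.38, edgeR adjusted p = 0.00196), with 695 of 3758 UMIs in C1q-bearing members. Without the 2 Ccr7-rich cells, which held 179 of them, the log2 change was 1.27 and not called (edgeR adjusted p = 0.276).

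**Figure D5:**
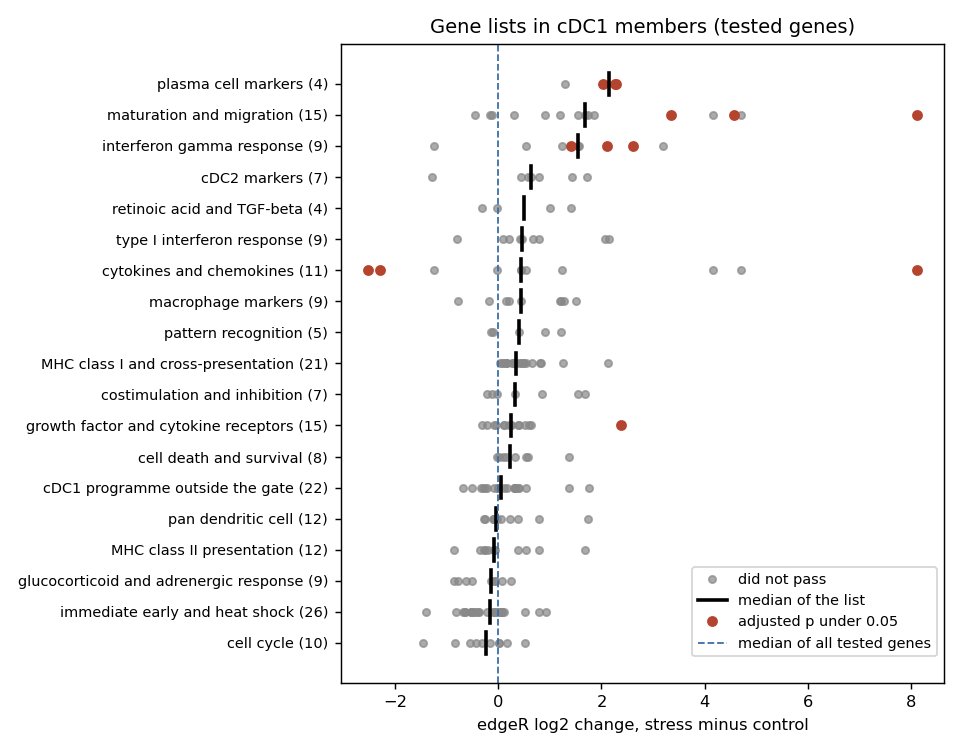
edgeR log2 change, stress minus control, of each tested gene on lists with at least 4 tested genes (number in brackets), with list medians as black bars and the median of all tested genes as a dashed line. Red points passed an adjusted p of 0.05. Ccl22, at 8.11, had 0 UMIs in controls and its fitted value has no fixed size.

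The cDC1 identity genes and the stress-hormone genes did not pass the test in either direction. On the identity list 12 of 22 tested genes were above 0, with 0 called and a median of 0.06. Irf8 had a log2 change of 0.33 (SE 0.20, edgeR adjusted p = 0.803) and Batf3 one of -0.01 (SE 0.30, edgeR adjusted p = 0.997). Itgae had a log2 change of -0.69 (SE 0.33, edgeR adjusted p = 0.744), and after thinning it was found in 20 of 56 control and 5 of 41 stress members. Of 9 tested genes of the glucocorticoid and adrenergic list 2 were above 0 and 0 passed, with a median of -0.15. Tsc22d3, a glucocorticoid-induced leucine zipper gene, stood at 145, 248, 277 and 131 CPM, with overlap. Of 26 tested immediate early and heat shock genes 8 were above 0, 0 had both stress libraries higher and 7 had both lower (26.9% against the background of 14.7%), with 0 called and a median of -0.15. Fos stood at 1571, 1435, 1157 and 1116 CPM (log2 -0.47, SE 0.20, edgeR adjusted p = 0.677).

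The cytokine and chemokine list summed to 3650, 1831, 3288 and 4367 CPM, with UMIs for 17 of its genes. Il12a, Il27, Il23a, Il6 and Ifnb1 had 0 UMIs in all members, and Xcl1, the ligand of Xcr1, had 1 UMI against a mean of 73.0 CPM in the other kept cells. Of 11 tested cytokine and chemokine genes 1 passed upward (Ccl22) and 2 downward (Ccl3 and Ccl4), against 0.429% and 0.0858% over all tested genes. Among the type I interferon genes 9 of 29 could be tested, 8 of them above 0 against 1749 of all 3498, with 0 called and a median of 0.46. Here too the filter on low counts admitted a gene low in both controls only through the stress libraries. Ifit1, Ifit2, Isg20, Oas2, Rsad2 and Ifi44 had 0 UMIs. Isg15 stood at 17.7, 3.997, 63.9 and 51.2 CPM (edgeR adjusted p = 0.445). The receptors of interferon gamma were present, with Ifngr1 at 464, 496, 525 and 358 CPM and Ifngr2 at 94.7, 40.0, 128 and 73.5 CPM, overlapping between groups. Pattern recognition (5 tested), costimulation (7), retinoic acid and TGF-beta (4), cell death (8) and cell cycle genes (10) had 0 calls in either direction. The receptor list had Il4ra alone, 1 of 15 tested genes (0.429% over all).

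Whether stress acted on cDC1 as on cDC2 was tested as an interaction over both cell types within each library. Of 4502 genes 22 passed an edgeR adjusted p of 0.05 (0.489%). The cDC2 were held to at most 1 C1q UMI, while the cDC1 members include 8 C1q-bearing cells. Without those cells 37 genes passed, among them 21 of the 22. For Irf1, which rose in cDC2 by 1.48 on the log2 scale (edgeR adjusted p = 0.0120), the difference was not called. For Psmb9 it was, with a change of 0.43 in cDC1 and 1.66 in cDC2 (difference -1.23, SE 0.29, edgeR adjusted p = 0.0494). In cDC2 it rose from 136 and 136 to 436 and 465 CPM (edgeR adjusted p = 0.0019), while control cDC1 stood at 600 and 560 CPM. Hspa1a, an inducible heat shock protein, rose in cDC2, from 279 and 298 to 916 and 1396 CPM, and stood at 870, 775, 660 and 544 CPM in cDC1, where it was not called (difference -2.45, SE 0.29, edgeR adjusted p = 1.78e-05). Apol7c had 319, 216, 511 and 767 CPM in cDC1, 135 of its 474 UMIs in the 2 Ccr7-rich cells, and 49.6, 20.9, 8.72 and 16.3 CPM in cDC2 (difference 2.80, SE 0.56, edgeR adjusted p = 0.0123). Without those 2 cells the Apol7c difference was 1.76 and not called (edgeR adjusted p = 0.469). Psmb9 was not called without them either, at a difference of -1.22 (edgeR adjusted p = 0.0840). In all, without the 2 cells 9 genes passed the interaction test and without control 1 there were 0, with 241 at an unadjusted p under 0.05.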

How the data were processed

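Raw UMI counts per gene and barcode were deposited for 4 libraries by the authors, who used Cell Ranger (5 and 5.0) and mm10, per the submitters' processing notes; the matrix headers name software 3.1.0. Barcodes with at least 500 UMIs, 200 genes and at most 10% mitochondrial UMIs were kept, and the highest Scrublet scores (scanpy 1.11.5) per library, at an expected rate of 0.8% per 1000 barcodes, were marked as doublets and left out only as an alternative. Member counts were summed per library and tested with edgeR 4.0.16 (TMM, filterByExpr, robust quasi-likelihood, Benjamini-Hochberg), with DESeq2 1.42.0 as the alternative. The filter asked for enough counts in at least 2 libraries, so a gene low in 1 group can enter only through the other. The code was tested on simulated data. cDC2 needed Cd209a and at least 3 UMIs over 5 cDC2 genes, and macrophages at least 5 C1q UMIs. Both needed to lack Xcr1 and Clec9a. cDC2 were also held to at most 1 C1q UMI, a limit that cDC1 members did not have. B cells needed at least 2 UMIs over Cd79a and Cd79b, with plasma cells not left out. Shares were compared by exact permutation. The members and gene lists were chosen with earlier results of these data known. Named genes are, per direction, up to 10 called genes by smallest p (where under 5 were called, the 10 with smallest p of at least 50 CPM), up to 4 of at least 50 CPM per list, 5 per direction for the interaction, and 25 programme genes; other named genes, such as Il4ra, Brd1, Psmb9, Apol7c, Gbp2 and genes listed at 0, and the 2 Ccr7-rich cells were chosen after their values were seen. Reads of near-identical copies (H2-Q6, Bcl2a1b, Hspa1a and Hspa1b) may be exchanged. Same-numbered libraries did not deviate together (correlation -0.0268). Some results are not reported here.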

Additional observations from a re-analysis of the deposited data

Results flagged for a closer look

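A set of 10 genes had a stress effect that differed between cDC1 and cDC2 in the interaction test. A positive difference means a higher signed log2 change in cDC1 than in cDC2, which a fall in cDC2 can also give. Ccl22 had a difference of 9.80 on the log2 scale, resting on 0 UMIs in control cDC1 and on cDC2 levels of 198, 73.3, 81.4 and 32.5 CPM. Ccl17 had 7.26, with cDC2 at 144, 89.0, 14.5 and 9.76 CPM. Arl5c had 3.90, Ccr7 3.68 (1.25 without the 2 Ccr7-rich cells, edgeR adjusted p = 0.874) and Mgl2, a lectin gene of cDC2, 3.14, with cDC2 at 705, 518, 131 and 244 CPM and 19 of its 39 cDC1 UMIs in C1q-bearing members. Ccl17 and Mgl2 fell in cDC2 (log2 -3.33 and -1.79, edgeR adjusted p = 0.00163 and 0.00537) and were not called in cDC1.

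In the other direction Cxcl10 had a difference of -4.33, from 133, 68.0, 817 and 1181 CPM in cDC2, and Ifi211 one of -3.37, from 7.83, 5.23, 61.0 and 81.3 CPM in cDC2 against 118, 71.9, 121 and 76.7 CPM in cDC1. Hspa1b had -3.09, Hspa1a -2.45 and Plac8 -1.12, and each of these 3 rose in cDC2 (edgeR adjusted p = 0.00637 for Hspa1b, 0.000708 for Hspa1a and 0.000771 for Plac8) and was not called in cDC1.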

How the results depend on the processing

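Depth and cell number limit these results: 19 to 31 cells per library. The count of called genes, 18, was 32 with at least 3 UMIs over the gate genes, 10 with 19 members from each library, 44 with every gene of at least 1 UMI, 8 in DESeq2, 1 without the cells past the mitotic or maturation minimum and 9 without the 2 Ccr7-rich cells (both chosen after seeing the data), and 27 to 67 with 1 library left out (67 without control 1, 28 without control 2). The interaction count, 22, was 35, 9, 43, 8, 1 and 9 under the same settings, 37 without C1q-bearing members, 13 with macrophages in place of cDC2, and 0 to 60 with 1 library left out (0 without control 1, 14 without control 2, 60 without stress 1). Under the replicate block the counts were 23 and 18, and Tgfb1 was 0.090; the numbers pair nothing in the design. The difference in the cycling share turned from -3.85 to 9.47 points unthinned and to 0.709 without C1q-bearing members, where the UMIs were also drawn anew, and that in the maturation share from 9.70 to -1.08 unthinned. The shares of kept cells and of dendritic cells kept their direction under all alternatives run, from -0.837 to -0.0333 and from -20.8 to -4.29 points. Of 1110 gene values under alternatives 984 kept direction and call, 58 lost the call, 46 gained it and 22 changed sign, none of the 22 for a called gene. With 1 library left out the log2 change ran from -2.20 to 4.70 for Plet1, -0.30 to 0.87 for H2-DMb2, -0.60 to 0.11 for Cd74, -0.25 to 0.58 for Bst2, -0.31 to 0.024 for Unc93b1, -0.61 to 0.094 for Rara, -0.47 to 0.69 for Tgfb1, -0.12 to 0.028 for Mcl1, -2.10 to 0.52 for Top2a, -1.07 to 0.23 for Hmgb2, -1.17 to 0.43 for Sgk1 and -0.16 to 1.53 for Egr3. Without the cells past the mitotic or maturation minimum it was 0.020 for Irak1, 0.068 for Unc93b1, 0.17 for Rara and 0.11 for Sgk1, and without C1q-bearing members 0.00069 for Tgfb1 and -0.13 for Ifnar2. The cause of these changes was not tested.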
